A study of Mus musculus with 20 samples.

Results

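Messenger RNA levels of 36 genes of neuropeptide signalling were examined in mouse hippocampus: 15 neuropeptide precursors, the corticotropin-releasing hormone (CRH) binding protein with both CRH receptors, and 18 further peptide receptors. The genes were taken by symbol from a list of named peptide and receptor genes, and all 36 were found among the 57126 gene identifiers counted. Of them, 35 were abundant enough to be tested among 18648 genes. The gene left out was Galr1, a galanin receptor, which had 1 to 11 read pairs in a library.

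The study asked how the hippocampus responds to a glucocorticoid when the glucocorticoid receptor is made only as its full-length form. GRA knockin mice are homozygous for an exon 2 of the receptor gene Nr3c1 in which the start codon of full-length GRA is kept and those of the shorter translational isoforms are mutated. No Cre driver or tissue-specific promoter is named for it. Knockin and wild-type mice, all male C57BL/6, were adrenalectomized at about 2.5 months of age, which removes their own glucocorticoids, and 2 weeks later were injected with dexamethasone, a synthetic glucocorticoid, at 1 mg/kg or with PBS. Hippocampus was taken 6 h later, and poly(A) RNA of 20 mice was sequenced as 1 library each. The 4 groups of 5 were knockin with dexamethasone, knockin with PBS, wild-type with dexamethasone and wild-type with PBS. No group kept its adrenal glands, so PBS is a hormone-depleted state, and a single dose and a single time were sampled.

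Neuropeptides are cut from larger precursor proteins, stored in dense-core vesicles and released mostly by interneurons of the hippocampus, where somatostatin, neuropeptide Y, cholecystokinin and vasoactive intestinal peptide are among the peptides used to tell interneuron classes apart, though cells can make more than one and cholecystokinin is made by pyramidal cells too. Nearly all of them act through G-protein-coupled receptors on neurons, glia and vessels. CRH is best known as the hypothalamic peptide that drives the pituitary and adrenal stress response and is repressed there by glucocorticoids, but hippocampal interneurons make it too, and its receptor CRHR1 sits on principal neurons.

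Libraries held 11493014 to 48267708 assigned read pairs. Markers of hippocampal neurons were abundant, with 1474 to 1746 CPM (read pairs scaled to a common library size) of Slc17a7, the vesicular glutamate transporter, and 136 to 178 CPM of Prox1 of dentate granule cells. A list of 15 hypothalamic markers summed to only 2.10 to 4.09 CPM under dexamethasone and 2.00 to 3.83 CPM under PBS. Of its genes, Pmch, Hcrt, Oxt and Avp had no read in 2 to 8 of the 20 libraries, and Kiss1 had none in any. Agrp (0.418 to 1.21 CPM), Pomc (0.416 to 1.47 CPM) and Gnrh1 (0.0511 to 0.603 CPM) were read in every library. Lists for other brain regions summed higher. Under dexamethasone and PBS, 14 striatal markers had 488.0 to 526.7 and 490.9 to 532.7 CPM. In the same order, 15 thalamic and habenular markers had 179.7 to 220.8 and 154.3 to 196.0 CPM. For 14 neocortical and subicular markers the sums were 545.6 to 604.8 and 543.3 to 638.5 CPM. The part of these regions in the counts was not tested. Nr3c1 itself had 96.1 to 117 CPM in knockin mice with dexamethasone against 142 to 197 CPM in knockin mice with PBS, and 88.6 to 107 CPM in wild-type mice with dexamethasone against 118 to 171 CPM in wild-type mice with PBS. Start-codon changes leave the transcript in place, so these counts do not check the genotype labels. All 8 glucocorticoid-induced genes used to check the treatment rose in both genotypes, for example Tsc22d3 (GILZ) by 1.82 on the log2 scale in knockin mice (edgeR quasi-likelihood test, adjusted p = 2.58e-08). Choroid plexus transcripts stood apart in 2 libraries, with marker sums of 1471 CPM in knockin dexamethasone mouse 2 and 1889 CPM in wild-type PBS mouse 4, against 43.8 to 635 CPM elsewhere.

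Levels between genes were compared as CPM per kilobase of exon, over all 20 libraries. Somatostatin (Sst, 197 ± 10.3, SD, n = 20) and cholecystokinin (Cck, 165 ± 12.7) were the most abundant precursors, followed by neuropeptide Y (Npy, 46.8 ± 4.43). The ranges of these 3 genes did not overlap, except that the lowest Sst library (175) was below the highest Cck library (203). After them came the opioid precursors proenkephalin (Penk, 12.0 ± 3.18) and prodynorphin (Pdyn, 8.75 ± 2.08) and vasoactive intestinal peptide (Vip, 8.55 ± 1.60), whose ranges overlapped each other. Cort, the cortistatin precursor, Tac1 for substance P, Nts for neurotensin, Nmb for neuromedin B, Pnoc for nociceptin and Tac2 for neurokinin B had means of 2.83 to 5.98. Pituitary adenylate cyclase-activating peptide (PACAP, gene Adcyap1) averaged 1.32, Crh 0.733 and galanin (Gal) 0.573.

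Among the receptors, the PACAP receptor PAC1 (Adcyap1r1) stood above the rest at 36.7 ± 3.41 CPM per kilobase, and its lowest library (32.3) was above the highest library of the next receptor, the neuropeptide Y receptor gene Npy2r (17.3 ± 1.76, up to 21.0). Sstr4, a somatostatin receptor, followed at 14.1, then Crhbp at 11.9, the nociceptin receptor Oprl1 at 11.3, Npy1r at 9.99 and Sstr3 at 9.64, neighbours whose ranges overlapped. The kappa and mu opioid receptor genes Oprk1 and Oprm1 had 0.236 and 0.214, the neurokinin 1 receptor gene Tacr1 0.359 and the vasoactive intestinal peptide receptor gene Vipr2 0.274. The delta opioid receptor gene Oprd1, at 3.31, lay above both, with its lowest library at 2.81 against a highest of 0.338 for Oprk1 and 0.3005 for Oprm1. Crhr1 averaged 3.75, against 0.576 for Crhr2.

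**Figure D1:**
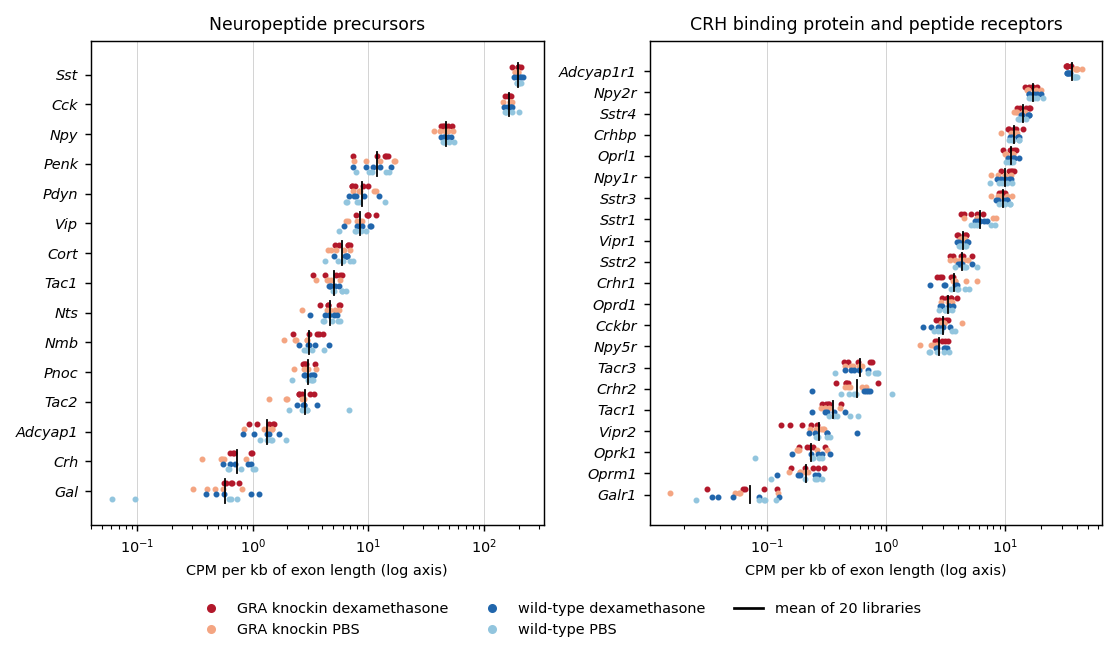
Level of each of the 36 genes in the 20 libraries, in CPM per kilobase of exon on a log axis, with precursors on the left and the CRH binding protein and receptors on the right. Points are libraries coloured by group and the vertical tick is the mean of 20 libraries; Sst (197), Cck (165) and Npy (46.8) lead the precursors and Adcyap1r1 (36.7) the receptors.

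Dexamethasone lowered 2 of the 35 tested genes in knockin hippocampus and 1 in wild-type hippocampus, and raised none in either. The genes were Adcyap1r1, which fell in both genotypes, and Crhr1, which passed the test in knockin mice and in the mean of both genotypes. None of the 15 precursors passed the test. The 2 of 35 genes called in knockin mice (5.71%) compare with 10.0% of all tested genes called there, of which 4.71% lower. The 1 of 35 called in wild-type mice (2.86%) compares with 9.21% of all genes, of which 3.94% lower. For the mean response of both genotypes, 2 of 35 were called, both lower, against 18.2% of all genes, of which 8.41% lower. The share of members called lower was thus near that of all genes in both genotypes, and the calls concern single genes, not the group. Each call is an adjusted p under 0.05 in edgeR over all 18648 genes, and in bulk tissue fewer cells of a type cannot be told apart from less RNA per cell.

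Adcyap1r1 encodes PAC1, the receptor that binds PACAP with high preference and raises cAMP. The gene (ENSMUSG00000029778.13) spans chr6:55428963-55478436 on the + strand of mm39. Its libraries held 210.2, 204.1, 210.8, 226.7 and 209.6 CPM in knockin mice with dexamethasone, against 253.7, 255.9, 244.7, 279.6 and 249.0 CPM in knockin mice with PBS. In wild-type mice it had 221.7, 217.5, 215.5, 208.0 and 209.3 CPM with dexamethasone, against 239.9, 241.6, 249.7, 245.2 and 254.7 CPM with PBS. All 10 dexamethasone libraries were below all 10 PBS libraries, and a separation of this kind was found for 3.90% of all tested genes. Within a genotype it was found for 8.68% of genes in knockin and 8.22% in wild-type mice. The log2 fold change was -0.27 ± 0.04 (SE) in knockin mice (edgeR adjusted p = 5.09e-06), a fall of 17.3%. It was -0.20 ± 0.04 in wild-type mice (edgeR adjusted p = 0.000396), a fall of 12.9%. The difference of the responses was -0.07 (95% interval -0.18 to 0.03; edgeR adjusted p = 1), so a difference between genotypes was not shown. The change was small but Adcyap1r1 also had the smallest spread between mice of the 36 genes, a pooled SD of 0.0535 on the log2 scale against a median of 0.222 over the 35 tested genes and 0.127 over all genes tested. It was called in both genotypes in all 30 alternative analyses.

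Adcyap1, the gene of its ligand, was not called. It had 4.55 ± 0.943 CPM in knockin mice with dexamethasone and 4.54 ± 0.940 CPM in knockin mice with PBS, and 4.45 ± 1.20 CPM in wild-type mice with dexamethasone and 5.20 ± 1.06 CPM in wild-type mice with PBS (SD, n = 5 each). The mean log2 response was -0.09, with a 95% interval of -0.37 to 0.19. The other receptors that bind PACAP, Vipr1 and Vipr2, also bind vasoactive intestinal peptide. Vipr1 had a mean log2 response of 0.02 (95% interval -0.07 to 0.12). Vipr2 was sparse, with 9 to 33 read pairs in a library, and its mean log2 response of -0.15 had an interval of -0.47 to 0.18. Adcyap1r1 is made by neurons and glia alike, and lists of cell markers were read beside it. Of 10 oligodendrocyte markers 1 rose and 5 fell in the mean response, with a median of -0.22 on the log2 scale in the mean and in each genotype; they summed to 3814 to 5735 CPM under dexamethasone and 4854 to 6633 CPM under PBS. Of 10 microglia markers 3 rose and 4 fell (median 0.00), with sums of 427.6 to 482.3 CPM under dexamethasone and 467.8 to 542.8 CPM under PBS. Of 10 astrocyte markers 2 rose and 2 fell (median 0.00), with sums of 6880 to 7716 CPM under dexamethasone and 6898 to 7484 CPM under PBS, and of 20 principal-neuron markers 2 rose and 1 fell (median 0.08), with sums of 7876 to 9131 CPM under dexamethasone and 7515 to 9109 CPM under PBS. Of 20 GABAergic interneuron markers 4 rose and 1 fell (median 0.06). They summed to 1502 to 1617 CPM under dexamethasone and 1321 to 1446 CPM under PBS. Of 10 endothelial and mural markers 1 rose and 4 fell (median -0.13). Their sums were 469.6 to 559.2 CPM under dexamethasone and 482.4 to 611.6 CPM under PBS. Of all tested genes 18.2% were called in the mean response. The part of these cell types in the Adcyap1r1 values was not tested.

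CRHR1 is the high-affinity CRH receptor. Crhr1 (ENSMUSG00000018634.11; chr11:104023681-104066349, + strand, mm39) had 9.02, 7.31, 7.01, 6.67 and 8.62 CPM in knockin mice with dexamethasone, against 9.29, 11.6, 14.3, 9.37 and 9.06 CPM in knockin mice with PBS. It had 7.64, 7.60, 9.70, 5.76 and 9.40 CPM in wild-type mice with dexamethasone, against 9.68, 9.94, 11.3, 8.68 and 12.3 CPM in wild-type mice with PBS. The knockin groups did not overlap, though the highest dexamethasone and lowest PBS library were 9.02 and 9.06 CPM, and the wild-type groups overlapped in 2 dexamethasone libraries and 2 PBS libraries. The log2 fold change was -0.47 ± 0.14 in knockin mice (edgeR adjusted p = 0.0343), a fall of 27.6%. In wild-type mice it was -0.36 ± 0.14 (edgeR adjusted p = 0.126). Over both genotypes Crhr1 fell by 25.0% (log2 -0.41 ± 0.10, edgeR adjusted p = 0.00416), a call made in all 29 alternatives that allow this contrast. The difference of the responses was -0.10 (95% interval -0.51 to 0.31; edgeR adjusted p = 1). The knockin call alone was lost in 8 of 30 alternatives, among them each fit without knockin PBS mouse 2 (log2 -0.43, adjusted p = 0.0889), knockin PBS mouse 3 (-0.34, adjusted p = 0.119) or knockin dexamethasone mouse 2, 3 or 4 (-0.45, -0.44 and -0.41, adjusted p = 0.0807, 0.0847 and 0.0985).

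The remaining CRH genes gave wider or flatter values. Crh, the ligand, had 8 to 43 read pairs in a library. It averaged 1.04 ± 0.227 CPM in knockin mice with dexamethasone and 0.757 ± 0.245 CPM in knockin mice with PBS, and 0.994 ± 0.234 CPM in wild-type mice with dexamethasone and 1.08 ± 0.269 CPM in wild-type mice with PBS (SD, n = 5 each). Its log2 fold change was 0.43 (95% interval -0.06 to 0.93) in knockin and -0.08 (-0.56 to 0.39) in wild-type mice, so a 1.5-fold change lies outside the wild-type interval whereas a 1.5-fold rise lies inside the knockin interval. Crhbp, which binds CRH and keeps it from its receptors, was measured closely. It averaged 21.5 ± 2.52 CPM in knockin mice with dexamethasone and 20.6 ± 2.46 CPM in knockin mice with PBS, and 22.1 ± 1.77 CPM in wild-type mice with dexamethasone and 21.7 ± 1.85 CPM in wild-type mice with PBS. Its mean log2 response was 0.05 (95% interval -0.07 to 0.18). Crhr2, the receptor preferred by urocortins, had a mean log2 response of -0.02 (-0.42 to 0.39), and its highest library in each treatment was the one rich in choroid plexus transcripts: 2.62 CPM in knockin dexamethasone mouse 2 and 3.43 CPM in wild-type PBS mouse 4. The part of choroid plexus tissue in Crhr2 was not tested.

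**Figure D2:**
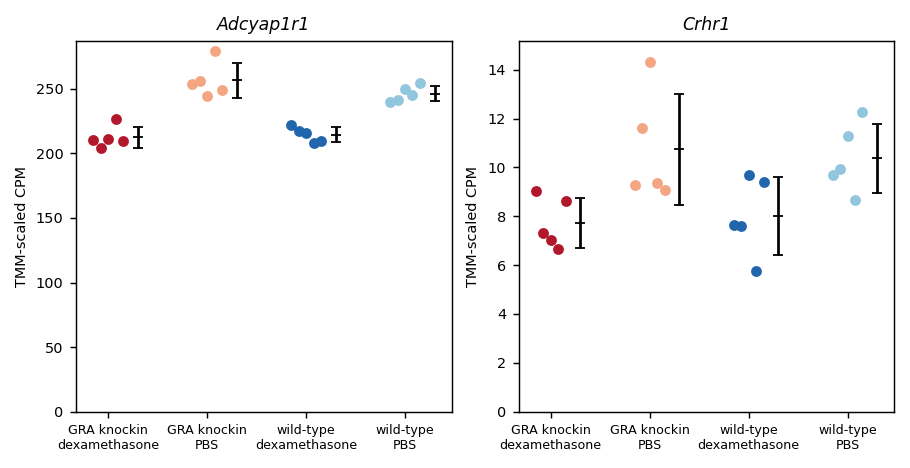
TMM-scaled CPM of Adcyap1r1 (left) and Crhr1 (right) in each library, with bars for the group mean ± SD of 5 mice. All 10 dexamethasone libraries of Adcyap1r1, at 204.1 to 226.7 CPM, sit below all 10 PBS libraries, at 239.9 to 279.6 CPM, whereas the wild-type groups of Crhr1 overlap.

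The sequence just upstream of both genes is shown because they are the only members called; the windows are the 250 bases before the annotated gene start in the RefSeq promoter table of GRCm38.p6, printed on the gene's strand. The Adcyap1r1 window is chr6:55451728-55451977 (+ strand, 65.6% G and C) and the Crhr1 window chr11:104132531-104132780 (+ strand, 74.8% G and C). Capitals mark the GC box GGGCGG, searched on both strands, which lies 45 to 40 bases before the start in Adcyap1r1 (as CCGCCC) and 13 to 8 bases before it in Crhr1.
Adcyap1r1: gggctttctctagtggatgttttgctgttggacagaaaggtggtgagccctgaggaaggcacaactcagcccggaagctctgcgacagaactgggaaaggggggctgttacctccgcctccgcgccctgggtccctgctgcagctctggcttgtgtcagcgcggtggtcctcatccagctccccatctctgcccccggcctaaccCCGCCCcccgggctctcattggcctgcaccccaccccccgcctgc
Crhr1: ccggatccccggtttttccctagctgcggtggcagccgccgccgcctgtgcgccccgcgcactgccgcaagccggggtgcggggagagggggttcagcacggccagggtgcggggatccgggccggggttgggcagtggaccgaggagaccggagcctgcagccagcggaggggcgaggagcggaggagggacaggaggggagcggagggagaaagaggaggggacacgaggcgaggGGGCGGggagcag
A GC box was present in 11 of the 30 member genes with a window and in 35.4% of all 27025 genes with one. The word TGTTCT, a conserved stretch of glucocorticoid receptor sites (AGAACA on the other strand), was found in the windows of Cort, Nmb, Npy5r, Sstr3 and Oprl1, 5 of the 30, and in 18.2% of all genes with a window. None of these 5 genes was called. It was not found in these windows of Adcyap1r1 or Crhr1, which says only that these letters are not there.

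The abundant interneuron peptide genes Sst, Cck and Npy gave narrow intervals. Sst averaged 141 ± 9.02 CPM in knockin mice with dexamethasone and 138 ± 4.27 CPM in knockin mice with PBS, and 145 ± 9.88 CPM in wild-type mice with dexamethasone and 143 ± 4.93 CPM in wild-type mice with PBS (SD, n = 5 each). Its mean log2 response was 0.03 with a 95% interval of -0.04 to 0.10, that of Cck was -0.02 (-0.12 to 0.08) and that of Npy was -0.01 (-0.12 to 0.11). For these 3 abundant precursors a 1.5-fold change in either direction lies outside the interval in each genotype. Vip averaged 15.1 ± 2.11 CPM in knockin mice with dexamethasone and 11.8 ± 1.69 CPM in knockin mice with PBS, and 13.4 ± 2.73 CPM in wild-type mice with dexamethasone and 12.0 ± 2.28 CPM in wild-type mice with PBS. The Vip log2 fold change was 0.36 ± 0.15 in knockin mice (edgeR adjusted p = 0.167), and 0.26 ± 0.11 over both genotypes (edgeR adjusted p = 0.112), a value called in 2 of 29 alternatives. A list of 20 GABAergic interneuron markers summed to 1502 to 1617 CPM under dexamethasone and 1321 to 1446 CPM under PBS; 4 of the 20 rose and 1 fell in the mean response, in which 18.2% of all genes were called. Their part in the Vip values was not tested.

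Sst and Sstr2 are the members whose upstream windows hold a whole cAMP response element, the palindrome TGACGTCA, which occurs in 1.77% of all genes with a window; the Sst element is the textbook site through which cAMP activates that gene. The Sst window is chr16:23890845-23891094 (- strand) and the Sstr2 window chr11:113619077-113619326 (+ strand), with the element in capitals, 48 to 41 and 58 to 51 bases before the start.
Sst: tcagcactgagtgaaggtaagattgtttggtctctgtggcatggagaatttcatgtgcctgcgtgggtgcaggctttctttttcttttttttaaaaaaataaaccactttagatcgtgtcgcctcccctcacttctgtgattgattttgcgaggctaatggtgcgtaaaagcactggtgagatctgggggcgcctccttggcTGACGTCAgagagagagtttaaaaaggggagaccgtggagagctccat
Sstr2: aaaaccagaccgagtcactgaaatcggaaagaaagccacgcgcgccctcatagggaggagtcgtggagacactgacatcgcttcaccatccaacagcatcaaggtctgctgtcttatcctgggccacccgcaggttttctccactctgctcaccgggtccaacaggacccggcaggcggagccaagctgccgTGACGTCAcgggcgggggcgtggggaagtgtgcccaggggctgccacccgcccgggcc
Shorter TGACG words, which also lie within the palindrome, were found in 13 of the 30 member genes and in 19.8% of all genes with a window. Neither gene was called: Sstr2, a somatostatin receptor, had a mean log2 response of -0.05 (95% interval -0.21 to 0.12).

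The other precursors were less precisely measured than Sst, Cck and Npy. In knockin mice, Nmb averaged 2.35 ± 0.503 CPM with dexamethasone and 1.75 ± 0.320 CPM with PBS (log2 fold change 0.43, edgeR adjusted p = 0.153). In wild-type mice it averaged 2.33 ± 0.541 CPM with dexamethasone and 2.25 ± 0.383 CPM with PBS. Mean log2 responses were 0.11 for Cort, 0.05 for Pnoc, 0.01 for Tac2, -0.01 for Nts, -0.02 for Penk, -0.04 for Tac1 and -0.11 for Pdyn, and every 95% interval spanned 0. Gal, with 1 to 23 read pairs in a library, had a mean log2 response of 0.43 (-0.14 to 0.99), the least certain of the 35 genes.

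Among the receptors that did not pass the test, Sstr4 and Npy5r came nearest to it. Npy5r, a neuropeptide Y receptor linked to feeding, averaged 7.50 ± 0.775 CPM in knockin mice with dexamethasone and 6.21 ± 0.754 CPM in knockin mice with PBS, and 7.52 ± 0.687 CPM in wild-type mice with dexamethasone and 7.04 ± 1.19 CPM in wild-type mice with PBS. Its mean log2 response was 0.20 ± 0.08 (edgeR adjusted p = 0.0827), and 2 of 29 alternatives called it. Sstr4 averaged 20.8 ± 2.17 CPM in knockin mice with dexamethasone and 18.8 ± 1.70 CPM in knockin mice with PBS, and 21.3 ± 1.52 CPM in wild-type mice with dexamethasone and 19.4 ± 1.19 CPM in wild-type mice with PBS. Its log2 fold change was 0.14 ± 0.07 in each genotype and 0.14 ± 0.05 over both (edgeR adjusted p = 0.0574), and 8 of 29 alternatives called it. Npy1r, the main postsynaptic neuropeptide Y receptor, had a mean log2 response of 0.14 (95% interval -0.03 to 0.31), and Sstr1 one of -0.19 (-0.43 to 0.06). Npy2r, which sits on axon terminals, stayed within -0.17 to 0.10, Sstr3 of neuronal cilia within -0.18 to 0.08, Oprl1 within -0.04 to 0.14 and Oprd1 within -0.10 to 0.14. The gastrin and cholecystokinin receptor gene Cckbr had -0.15 (-0.35 to 0.05). Oprk1 and Oprm1, at 10 to 86 read pairs in a library, had 0.14 (-0.24 to 0.53) and 0.10 (-0.23 to 0.43); 96 of the 6770 exon bases of Oprm1 overlap Ipcef1, an opposite-strand gene with 20972 read pairs in all. Over both genotypes, the interval lay inside a 1.5-fold change in either direction for 33 of the 35 genes, with Gal and Crhr1 outside; it did so for 23 genes in knockin mice and 26 in wild-type mice.

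**Figure D3:**
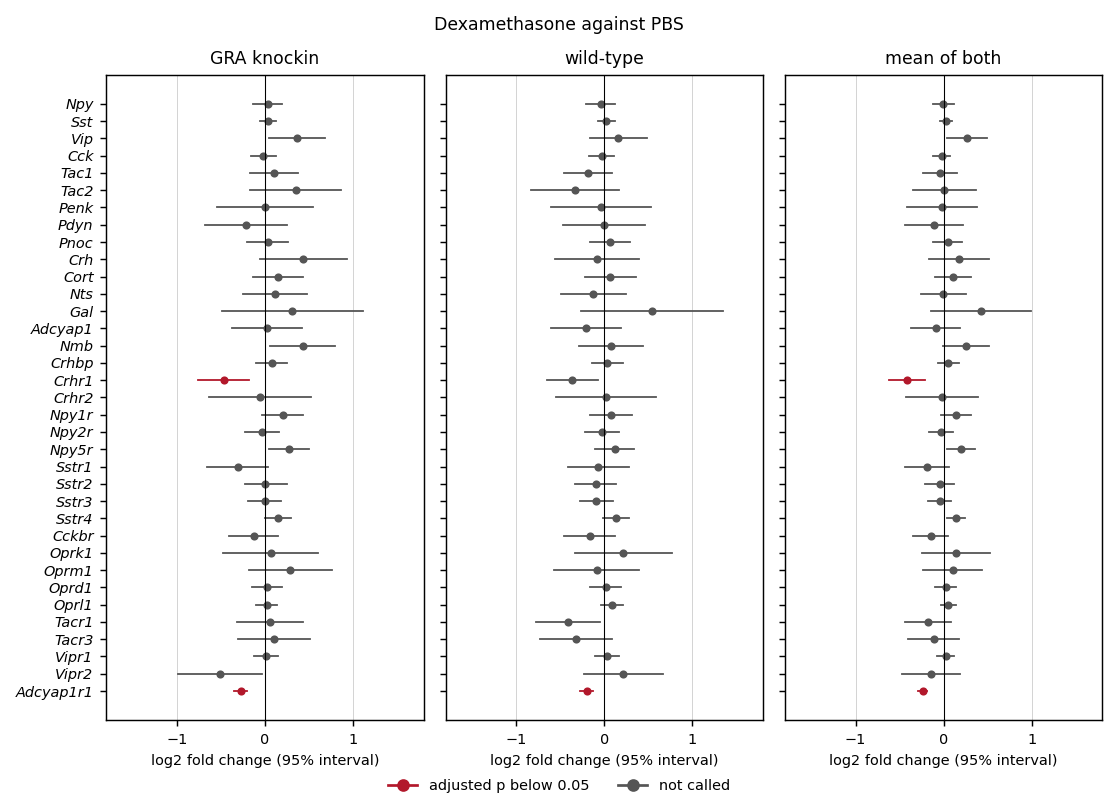
Log2 fold change of dexamethasone against PBS for the 35 tested genes, with 95% intervals from edgeR, in knockin mice, in wild-type mice and for the mean of both; red marks an adjusted p under 0.05. Adcyap1r1 is called in all 3 panels and Crhr1 in knockin mice and the mean, and every other interval belongs to a gene not called.

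The question of the study, whether receptor isoforms shorter than GRA matter, is addressed by the genotype contrasts. No member was called between knockin and wild-type mice, under dexamethasone or under PBS, nor for the difference of responses (edgeR, all adjusted p = 1). The share of all 18648 genes called was 0% in each of the 3 contrasts, by edgeR, DESeq2 and limma-voom. At an unadjusted p under 0.05, 1 of 35 members and 4.44% of all genes passed under dexamethasone, 3 of 35 and 3.61% under PBS, and 1 of 35 and 2.83% for the difference of responses. None of the 35 members separated knockin from wild-type libraries without overlap, against 0.788% of all genes under dexamethasone and 0.670% under PBS. The interval lay inside a 1.5-fold difference for 28 of 35 genes under dexamethasone, 24 under PBS and 18 for the difference of responses. Larger differences were not excluded for the remaining genes, which were not only the scarce ones. The Penk interval reached past 1.5-fold in all 3 contrasts, at -0.405 to 0.709, -0.444 to 0.676 and -0.753 to 0.826 on the log2 scale in that order.

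The 3 members with an unadjusted p under 0.05 under PBS were the tachykinin genes Tac2, Tac1 and Tacr1, all with lower values in knockin mice. Tac2 had 2.46, 1.71, 2.34, 1.76 and 1.22 CPM in knockin mice with PBS, against 2.37, 5.98, 2.60, 1.83 and 2.57 CPM in wild-type mice with PBS. The groups overlapped, and 1 wild-type mouse was far above the rest. The Tac2 log2 fold change was -0.69 ± 0.24 (edgeR adjusted p = 1), and -0.30 without wild-type PBS mouse 2. Tacr1, the substance P receptor, had -0.45 ± 0.18 (edgeR adjusted p = 1), and -0.31 without the same mouse. Tac1 had -0.29 ± 0.13 (edgeR adjusted p = 1), and -0.21 without knockin PBS mouse 2. Tacr3, the neurokinin B receptor, had -0.36 ± 0.20 (edgeR adjusted p = 1). Of the 35 members 27 had a log2 fold change under 0 in this contrast, with a median of -0.07 against 0.00 over all genes tested. Under dexamethasone the values of these 4 genes lay between -0.01 and 0.07, and the differences of their responses were 0.68 for Tac2, 0.47 for Tacr1, 0.42 for Tacr3 and 0.29 for Tac1, none called.

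Vipr2, the vasoactive intestinal peptide receptor VPAC2, gave the lowest value under dexamethasone. It had 0.671, 0.796, 0.883, 0.526 and 0.443 CPM in knockin mice with dexamethasone, against 1.08, 1.92, 0.854, 0.768 and 1.09 CPM in wild-type mice with dexamethasone. Under PBS the means were 0.930 ± 0.0978 CPM in knockin and 0.978 ± 0.122 CPM in wild-type mice (SD, n = 5 each). The log2 fold change under dexamethasone was -0.77 ± 0.23 and the difference of responses -0.72 ± 0.32 (edgeR adjusted p = 1 for both). Without wild-type dexamethasone mouse 2, the highest library, they were -0.54 and -0.49.

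**Figure D4:**
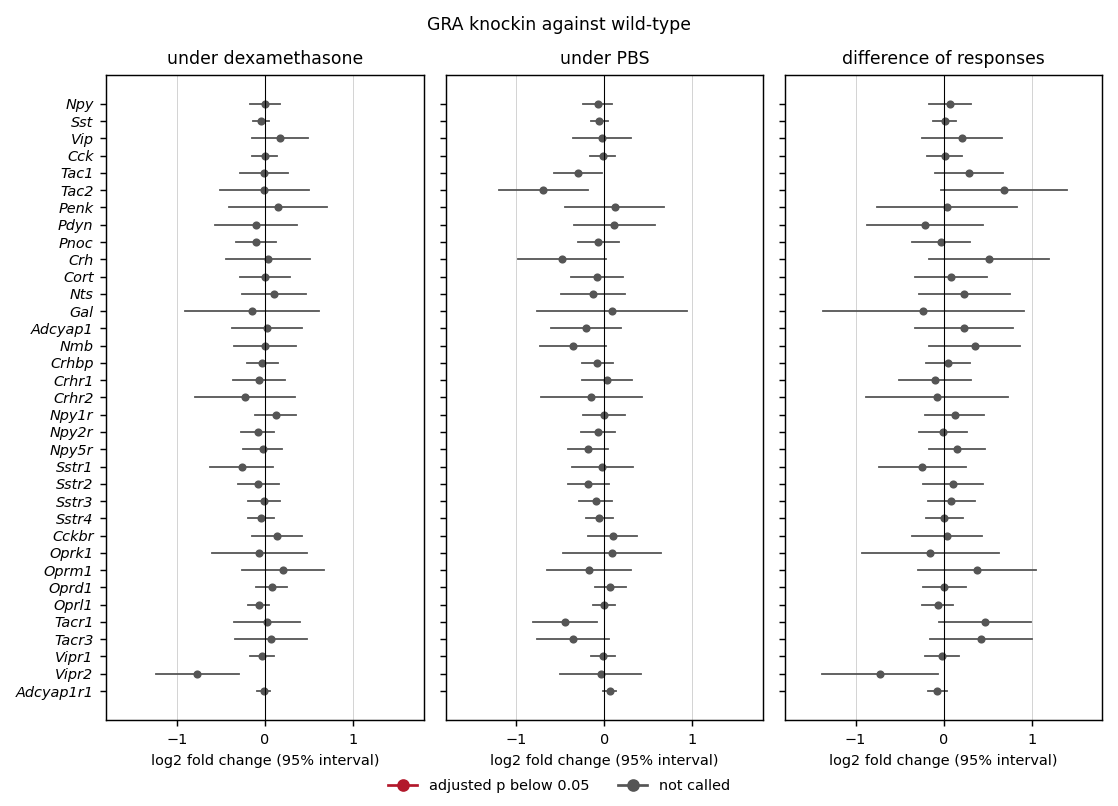
Log2 fold change of GRA knockin against wild-type for the 35 tested genes under dexamethasone and under PBS, and the knockin minus wild-type difference of the dexamethasone responses, with 95% intervals from edgeR. No gene is called in any panel; the point farthest from 0 is Vipr2 at -0.77 under dexamethasone and Tac2 at -0.69 under PBS.

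Both Penk and Pdyn, abundant opioid precursors, varied widely between mice of one group. Penk, the enkephalin precursor, had a pooled within-group SD of 0.421 on the log2 scale, and Pdyn, the dynorphin precursor, one of 0.327, against 0.0759 for Sst. In knockin mice with dexamethasone Penk had 20.2, 17.2, 10.7, 20.6 and 21.5 CPM, and in knockin mice with PBS 18.4, 13.7, 10.9, 24.3 and 24.5 CPM. In wild-type mice it had 10.7, 15.9, 22.6, 13.9 and 18.2 CPM with dexamethasone, and 20.8, 21.9, 11.4, 15.7 and 14.6 CPM with PBS. In knockin mice Pdyn had 17.1, 21.6, 23.7, 17.1 and 18.5 CPM with dexamethasone, and 20.0, 26.7, 27.97, 20.2 and 17.5 CPM with PBS. In wild-type mice it had 29.4, 18.0, 16.2, 21.7 and 18.6 CPM with dexamethasone, and 15.8, 15.3, 33.5, 19.9 and 18.9 CPM with PBS. In each of the 4 groups the mouse with the least Penk was the one with the most Pdyn.

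After each group's mean was subtracted, Penk and Pdyn correlated over the 20 libraries with Pearson r = -0.88 and Spearman rho = -0.88 (permutation test within groups, adjusted p = 0.00595 for both, over 595 member pairs). Without the 2 libraries farthest from the median in Penk, r was -0.89. Vip varied in the same direction as Penk (r = 0.84, rho = 0.82; permutation adjusted p = 0.00595 and 0.0446; r = 0.81 without the 2 farthest). Vip and Pdyn had r = -0.86 and rho = -0.74 (permutation adjusted p = 0.0337 and 0.159). Only the first 2 pairs passed by both measures. The 3 genes were then set against 20 principal-neuron markers, 60 relations chosen after the pairs were seen. Spink8, a marker of CA1 pyramidal cells, gave r = 0.92 with Penk, -0.87 with Pdyn and 0.85 with Vip (permutation adjusted p = 0.0002 each). Bok gave 0.89 with Penk, -0.84 with Pdyn and 0.74 with Vip, and Fibcd1, also of CA1, 0.78, -0.81 and 0.80 in the same order. Iyd had the opposite signs, 0.69 with Pdyn and -0.68 with Penk. Of the 60 relations 16 passed by both measures, all of them with Spink8, Bok, Fibcd1, Camk2a, Iyd or Tdo2. Some markers had the opposite sign or values near 0: Wfs1, also of CA1, gave -0.29 with Penk, 0.42 with Pdyn and -0.42 with Vip. The dentate marker Prox1 gave -0.08, 0.44 and -0.38 in the same order, and C1ql2, also dentate, 0.14, 0.23 and -0.19, none of them passing. Dsp, a further dentate marker, gave 0.63, -0.57 and 0.53. It passed by Pearson r (permutation adjusted p = 0.0332, 0.0451 and 0.0447) but not by Spearman rho. Penk, Pdyn and Vip thus varied between mice together with some subfield markers but not with all, and the part of subfield composition in this was not tested. Of the 1449 exon bases of Penk, 157 overlap a gene on the opposite strand that had 238 read pairs in all, against 8238 for Penk.

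**Figure D5:**
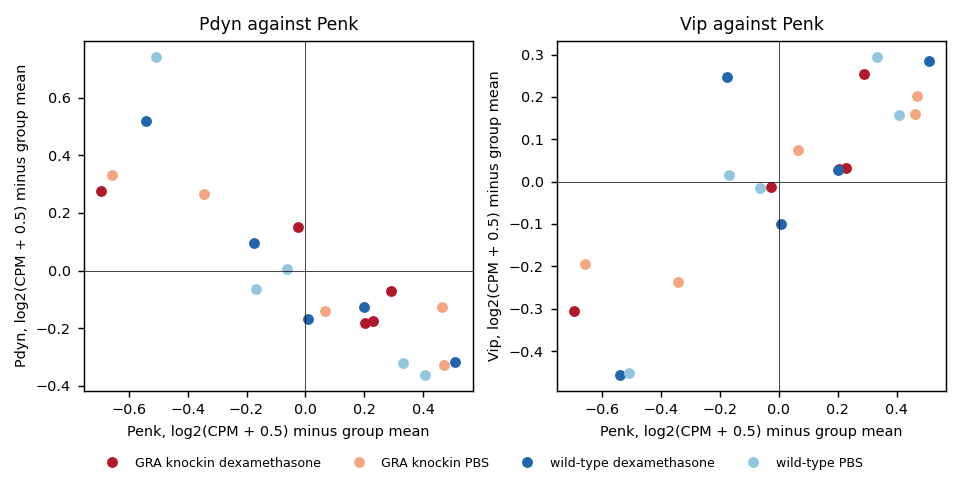
Pdyn (left) and Vip (right) against Penk in the 20 libraries, each as log2(CPM + 0.5) minus the mean of its group; points are libraries coloured by group. Pdyn is lower where Penk is higher (r = -0.88) and Vip is higher there (r = 0.84), in libraries of all 4 groups.

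Genes that make, cut or receive other peptides were followed through lists chosen for their function. Of 20 genes of peptide processing and dense-core vesicles, 19 were tested. In the mean response 1 of them was called, against 18.2% of all genes. This was Cpd, a carboxypeptidase of the secretory route, with 128 ± 6.46 CPM in knockin mice with dexamethasone and 149.7 ± 13.6 CPM in knockin mice with PBS. In wild-type mice Cpd had 131 ± 9.05 CPM with dexamethasone and 149 ± 11.6 CPM with PBS. Its mean log2 response was -0.20 ± 0.04 (edgeR adjusted p = 0.00119). Cpe, the processing carboxypeptidase and the highest of the list at 1218 CPM per kilobase, had 0.01. The list's median was 0.01, against 0.00 over all genes.

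Of 51 other peptide and hormone precursors 17 were tested, of which 3 rose and 1 fell in the mean response, a share near the 18.2% of all genes called there. Agt, the angiotensin precursor made in brain by astrocytes, had 28.8 ± 4.20 CPM in knockin mice with dexamethasone and 15.1 ± 2.87 CPM in knockin mice with PBS, and 33.1 ± 2.01 CPM in wild-type mice with dexamethasone and 17.5 ± 1.90 CPM in wild-type mice with PBS. It rose 1.91-fold (log2 0.94 ± 0.08, edgeR adjusted p = 6.07e-08). Endothelin 1 (Edn1, log2 0.59) and adrenomedullin (Adm, 0.51), both vasoactive peptides, also rose, and apelin (Apln, -0.21) fell (edgeR adjusted p = 0.00191, 0.0241 and 0.0417). The list's median was -0.03.

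Of 59 other peptide receptors and their partners 41 were tested, of which 8 rose and 7 fell, against 18.2% of all genes called in either direction, with a median log2 response of 0.00. Aplnr, the apelin receptor of endothelial cells, had 0.625 ± 0.143 CPM in knockin mice with dexamethasone and 1.95 ± 0.828 CPM in knockin mice with PBS, and 0.641 ± 0.228 CPM in wild-type mice with dexamethasone and 1.71 ± 0.785 CPM in wild-type mice with PBS. Its mean log2 response was -1.57 ± 0.25 (edgeR adjusted p = 6.69e-05). The endothelin receptors fell together: Ednra by 0.82 on the log2 scale and Ednrb, the astrocyte form, to 48.9 ± 4.51 CPM in knockin mice with dexamethasone against 81.1 ± 6.72 CPM in knockin mice with PBS (mean log2 -0.72, edgeR adjusted p = 1.58e-07). Prokr2, Npbwr1, Pth1r and Npr1 also fell, by 0.50, 0.54, 0.36 and 0.32. Mc5r, a melanocortin receptor, rose most, with 2.79 ± 0.526 CPM in knockin mice with dexamethasone against 1.07 ± 0.240 CPM in knockin mice with PBS (mean log2 1.23, edgeR adjusted p = 2.96e-07). Mc4r, the melanocortin receptor of appetite control, rose by 0.98 ± 0.32 in the mean response (edgeR adjusted p = 0.0392) but was called in neither genotype alone. Its PBS libraries varied widely, from 0.372 to 3.31 CPM in knockin and 0.445 to 4.27 CPM in wild-type mice. The natriuretic peptide clearance receptor Npr3 rose by 0.53, and Ramp2 and Ramp3, which pair with the calcitonin receptor-like receptor to bind adrenomedullin, by 0.60 and 0.42. The bombesin receptors rose as well, Nmbr by 0.46 and Grpr by 0.42, and so did Mchr1, the melanin-concentrating hormone receptor, by 0.32. Endothelial and mural markers, 10 genes, summed to 469.6 to 559.2 CPM under dexamethasone and 482.4 to 611.6 CPM under PBS; 1 rose and 4 fell, and their part in the vascular genes was not tested.

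All 17 peptide-degrading enzymes of the list were tested: 3 rose, 3 fell and the median was -0.03, against 18.2% called and a median of 0.00 over all genes. Among those that rose were Lnpep, by 0.13, and Tpp2, by 0.10. Dpp4 fell by 0.47 (edgeR adjusted p = 0.0406), Enpep, which trims angiotensin II, by 0.30 and the endothelin-converting enzyme gene Ece1 by 0.11. No gene of these 4 lists was called between the genotypes or for the difference of responses.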

How the data were processed

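The authors deposited 1 count table per library: whole read pairs per gene, not normalized, made with featureCounts 2.0.6 on pairs against the GENCODE M34 basic annotation with no strand option, per the file headers. Alignment with STAR 2.5.1 to mm39 is named in the submitters' processing notes, which also name Subread 1.5.1 and DESeq2 1.38.3. Without strand, reads of overlapping opposite genes cannot be told apart; 2 of the 36 genes, Penk and Oprm1, have such an overlap.

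Gene identifiers were matched to symbols in the reference tables (51884 of 57126 identifiers; those without a symbol held 0.264 to 0.337% of counts). Genes were filtered with filterByExpr (18648 kept), scaled by TMM and tested in 1 edgeR 4.0.16 quasi-likelihood fit of all 20 libraries with a term per group (16 residual degrees of freedom), with Benjamini-Hochberg adjustment over all genes. Contrasts were dexamethasone minus PBS in each genotype and their mean, knockin minus wild-type after either injection, and the knockin response minus the wild-type one. CPM values of the members, of the genes named from the other lists and of Nr3c1 are TMM-scaled, and a mean ± SD is over 5 mice. Sums of marker lists, and the values of Slc17a7, Prox1 and single hypothalamic genes, are CPM of the library total. Each labelled biological replicate was taken as 1 mouse; the counts of replicate pairs differed beyond sampling noise (chi-square per gene 2.56 to 12.7 over 40 pairs). Correlations used log2(CPM + 0.5) and 100000 permutations within groups, whose smallest p is 1.0e-05. Promoter windows came from RefSeq on GRCm38.p6, another build than the files; 30 of 36 genes matched.

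Alternatives were DESeq2 1.42.0 size factors and its Wald test, upper-quartile factors, limma-voom (limma 3.58.1) with sample weights, no filter, a filter of 50 counts in 5 libraries, only the libraries compared, a replicate block, and each library left out. The last 2 left out the 2 choroid-rich libraries, or wild-type PBS mice 1 and 2. The member genes, the other gene lists and the alternatives were chosen with earlier results of these data known. Every member could be named; from the other lists, the genes called in any contrast and the most abundant gene of a list; marker genes where their sums move with a member. Tacr3, Sstr1 and other uncalled members are given by their values only. A gene counted in the list of peptide-degrading enzymes is not reported here by name.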

Additional observations from a re-analysis of the deposited data

Results flagged for a closer look

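In 14 of 140 groups of 5 mice, 1 mouse stood far from the other 4 of its group; chance flags about 1 in 20 such groups, and none of these values was left out of the results above. Wild-type dexamethasone mouse 2 stood apart in 4 genes: Tac2 at 3.19 CPM (others 2.15 to 2.44), Sstr2 at 11.2 CPM (8.72 to 9.37) and Vipr2 at 1.92 CPM (0.768 to 1.09) were high, and Cort at 3.39 CPM (4.22 to 4.42) was low. Wild-type PBS mouse 3 stood apart in 3: Pdyn was high at 33.5 CPM (15.3 to 19.9), and Oprk1 at 0.381 CPM (1.14 to 1.377) and Tacr3 at 1.40 CPM (2.68 to 3.20) were low. Tac2 reached 5.98 CPM in wild-type PBS mouse 2 (others 1.83 to 2.60).

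Crhr2 was flagged in 3 groups. It was high at 2.62 CPM in knockin dexamethasone mouse 2 (others 1.15 to 1.48) and at 3.43 CPM in wild-type PBS mouse 4 (1.28 to 1.69), the libraries with choroid plexus marker sums of 1471 and 1889 CPM. It was low at 0.727 CPM in wild-type dexamethasone mouse 5 (1.98 to 2.24), whose choroid sum of 89.3 CPM lay within the range of the rest of its group.

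Pnoc was high at 7.53 CPM in knockin dexamethasone mouse 3 (others 5.85 to 6.24) and low at 4.75 CPM in wild-type PBS mouse 1 (6.48 to 7.12). Cckbr was high at 12.6 CPM in knockin PBS mouse 3 (8.36 to 8.87), the mouse that also had the most Crhr1 and Pdyn of its group.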

How the results depend on the processing

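Of 6199 recomputed log2 fold changes of members over 30 alternatives, 8 called values lost their call, 14 gained one and none of the called values reversed; 393 of 6037 uncalled values changed sign. The 8 lost calls are all Crhr1 in knockin mice: with limma-voom (log2 -0.37, adjusted p = 0.0727), with no filter (-0.46, adjusted p = 0.127), without both choroid-rich libraries (-0.45, adjusted p = 0.0804) and in the 5 leave-one-out fits named above. Members called in knockin mice were therefore 1 under these alternatives, in place of 2 (1 to 2 with a library left out), the range over all alternatives of the Crhr1 adjusted p being 0.00736 to 0.127. Without wild-type PBS mice 1 and 2, 4 members were called in the mean response in place of 2. Npy5r (log2 0.28, edgeR adjusted p = 0.00744) and Vip (0.34, edgeR adjusted p = 0.0408) were added. These 2 libraries were left out as liver-rich, but their liver marker sums, 709 and 439 CPM, were not the highest. Wild-type PBS mouse 4 had 1938 CPM and knockin dexamethasone mouse 2 had 1556 CPM. The liver list includes Ttr, which is also on the choroid plexus list. With a library left out the mean response called 2 to 3 members. Sstr4 was called in 8 alternatives (adjusted p from 0.0157), and Vip in knockin mice (0.35, adjusted p = 0.0477) with only the libraries compared; that fit also called 1 gene, Cd74 (-1.05, adjusted p = 0.0211), lower in knockin mice under dexamethasone, against 0 otherwise. Over all genes, leaving out a library gave 1501 to 1955 calls in knockin and 1288 to 1784 in wild-type mice. Libraries with the same replicate number correlated at -0.108 to 0.249 in their deviations, with 5 of 30 pairs over 0.1. Their median was 0.015, against -0.006 for other pairs, and they matched best in 11 of 60 cases. These values cannot decide whether equal numbers share a litter or batch, which the labels do not say. With the number as a replicate block, 2 members were called in wild-type mice in place of 1 (Crhr1, -0.37, adjusted p = 0.0424). No scaling moved the median of all genes by more than 0.017. Gal, Crh, Vipr2, Oprk1 and Oprm1 did not pass the filter of 50 counts in 5 libraries; 30 members did.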
